A study of Kluyveromyces marxianus and Saccharomyces cerevisiae with 12 samples.

Results

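SIP18, SPG4 and SPG1 are 3 short genes of the wine yeast *Saccharomyces cerevisiae* EC1118 that are known from cells that have stopped growing. They were chosen by their measured values, as genes far higher after 20 h than after 6 h of fermentation, so the difference between those times is given here as a description without a test. They are 3 of the 6461 loci in the *S. cerevisiae* tables, and of 11780 loci in the series, which also holds *Kluyveromyces marxianus* IWBT Y855. The tables give them as EC1118_1M3_3642g (SIP18), EC1118_1M3_2795g (SPG4) and EC1118_1G1_5699g (SPG1), with no gene name. The later EC1118 group was taken at 20 h (3 samples) and the earlier one at 6 h (3 samples). The *K. marxianus* groups were taken at 36 h and at 6 h, 3 samples each. Fermentation ran at 25 °C, with 10 mg/l of phytosterols, sugars at 230 g/l and assimilable nitrogen at 200 mg/l. The labels give hours and no growth phase, EC1118 is a single commercial strain, and nothing says that replicates were separate cultures, so the spread between them may be technical.

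Yeast that runs out of nutrients stops dividing and can enter a stationary phase, in which it gains resistance to heat, drying and oxidants. SIP18 encodes a hydrophilin, a small, very hydrophilic protein that helps cells survive drying and rehydration, and its transcription is known to respond to osmotic stress. SPG4 and SPG1 are named "stationary phase gene" because cells that lack them survive high temperature poorly once they have stopped growing. Genes of this kind are often controlled through the stress response element, bound by Msn2 and Msn4, and through the post-diauxic shift element, bound by Gis1.

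The names were checked against the reference strain S288C (RefSeq, assembly R64), since no EC1118 annotation with gene names was used here. SIP18, SPG4 and SPG1 have 80, 116 and 96 codons in both strains, stop codon included, and encode 79, 115 and 95 residues in S288C. Only 5, 6 and 2 of 6021 S288C protein-coding genes have those lengths. Of the 10 EC1118 loci beside each gene, 7, 9 and 8 had a length found among the neighbours of its S288C namesake. In the EC1118 coordinates SIP18 spans 581095 to 581334 and SPG4 spans 452566 to 452913 on 1 contig, and SPG1 spans 924516 to 924803 on chromosome VII. Nearly all EC1118 loci without a name (96.9% of 6017) have lengths that are multiples of 3, so these are coding lengths without untranslated regions.

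The promoters are shown because the 3 genes were high at the same time, and stress genes share known promoter elements. They are those of S288C, from RefSeq R64, and not of EC1118, whose sequence was not used here. Each runs 5′ to 3′ from 250 bases before the start codon to the first 50 coding bases, on the coding strand. SIP18 is at chrXIII:610766-611065 (plus strand), SPG4 at chrXIII:482764-483063 (plus strand) and SPG1 at chrVII:962768-963067 (minus strand). Capitals mark matches to the 3 motifs searched.
SIP18: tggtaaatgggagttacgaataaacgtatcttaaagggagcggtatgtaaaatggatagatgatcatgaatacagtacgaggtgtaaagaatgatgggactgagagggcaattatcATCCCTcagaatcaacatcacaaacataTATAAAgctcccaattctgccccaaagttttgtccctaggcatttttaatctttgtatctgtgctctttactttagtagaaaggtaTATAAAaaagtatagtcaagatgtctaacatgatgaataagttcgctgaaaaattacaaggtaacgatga
SPG4: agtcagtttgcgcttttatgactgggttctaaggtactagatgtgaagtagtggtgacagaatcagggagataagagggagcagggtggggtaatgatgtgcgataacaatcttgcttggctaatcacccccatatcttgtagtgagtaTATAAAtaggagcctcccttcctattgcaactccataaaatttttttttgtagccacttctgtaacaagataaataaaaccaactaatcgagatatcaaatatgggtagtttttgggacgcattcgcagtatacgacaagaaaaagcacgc
SPG1: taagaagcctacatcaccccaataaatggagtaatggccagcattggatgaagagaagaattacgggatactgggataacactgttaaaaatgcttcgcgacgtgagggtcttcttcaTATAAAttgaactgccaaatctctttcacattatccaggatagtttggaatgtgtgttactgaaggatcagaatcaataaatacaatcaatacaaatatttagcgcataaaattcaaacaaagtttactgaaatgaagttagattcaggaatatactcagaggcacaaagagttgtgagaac

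The stress response element (AGGGG) had 0 matches on either strand in each of the 3 windows, and 21.6% of 6001 S288C windows of this kind hold it. The core of the post-diauxic shift element (AGGGAT) had 1 match, in SIP18, where its complement ATCCCT lies at -134 to -129 from the start codon. It occurs in 9.33% of the windows, and SPG4 and SPG1 had none. The TATA sequence TATAAA, added after these sequences had been seen, occurs in 45.2% of the windows. It lies at -101 to -96 in SPG4 and at -132 to -127 in SPG1. SIP18 has it at -106 to -101 and again at -20 to -15, and 14.5% of windows hold at least 2. These motifs overlap neither each other nor their own repeats here. A match of letters is a description and not a site that was measured.

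SIP18 mRNA was the most abundant of all loci by FPKM at 20 h, and an ordinary one at 6 h. FPKM divides fragments by transcript length and by the fragment total, and several tables of 1 sample were averaged. SIP18 had 59648, 81710 and 89942 FPKM in replicates 1, 2 and 3 at 20 h, against 104, 206 and 164 FPKM at 6 h. The lowest 20 h sample was 289-fold above the highest 6 h sample, so the groups lie far apart. The means were 77100 ± 15664 FPKM at 20 h and 158 ± 51.5 FPKM at 6 h (SD, n = 3 each), a ratio of 488. SIP18 ranked 1 of 6461 loci in each sample at 20 h, and 1427, 826 and 1012 in replicates 1, 2 and 3 at 6 h. Its difference of 8.96 on the log2(FPKM + 1) scale was the largest of the 5712 loci tested.

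SPG4 was close to the limit of detection at 6 h and among the more abundant mRNAs at 20 h. It had 409, 521 and 952 FPKM at 20 h, against 1.91, 0.666 and 3.1 FPKM at 6 h. Replicate 3 was the highest in both groups. The means were 628 ± 287 FPKM at 20 h and 1.89 ± 1.22 FPKM at 6 h (SD, n = 3 each), a ratio of 332, and the log2 difference of 7.76 was the second of 5712. The fragments behind these values numbered 701, 754 and 835 at 20 h. At 6 h they were 11 in replicate 1 (95% exact Poisson interval 5.49 to 19.7) and 2 in replicate 2 (0.242 to 7.22). Replicate 3 at 6 h had 2 (0.242 to 7.22) in the 1 of its 3 tables that allowed a count. SPG4 was at 0 in 6 of 13 tables of replicate 1 at 6 h and in 4 of 6 tables of replicate 2. Its ratio therefore rests on few fragments at 6 h, and the intervals cover counting error only.

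SPG1, like SPG4, was detected at 6 h in every sample, but at a higher FPKM, and it reached about the level of SPG4 at 20 h. It had 460, 587 and 1219 FPKM at 20 h, against 16.9, 9.06 and 10.5 FPKM at 6 h. At 20 h replicate 3 again stood above the other two. The means were 756 ± 407 FPKM at 20 h and 12.1 ± 4.16 FPKM at 6 h (SD, n = 3 each), a ratio of 62.3. SPG1 had 468, 506 and 556 fragments at 20 h, against 62, 17 and 2 at 6 h, the last from 1 of 3 tables (95% exact Poisson interval 0.242 to 7.22). At 6 h it was at 0 in 1 of 13 tables of replicate 1 and in 1 of 6 tables of replicate 2. Its log2 difference of 5.77 ranked 9 of 5712.

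**Figure D1:**
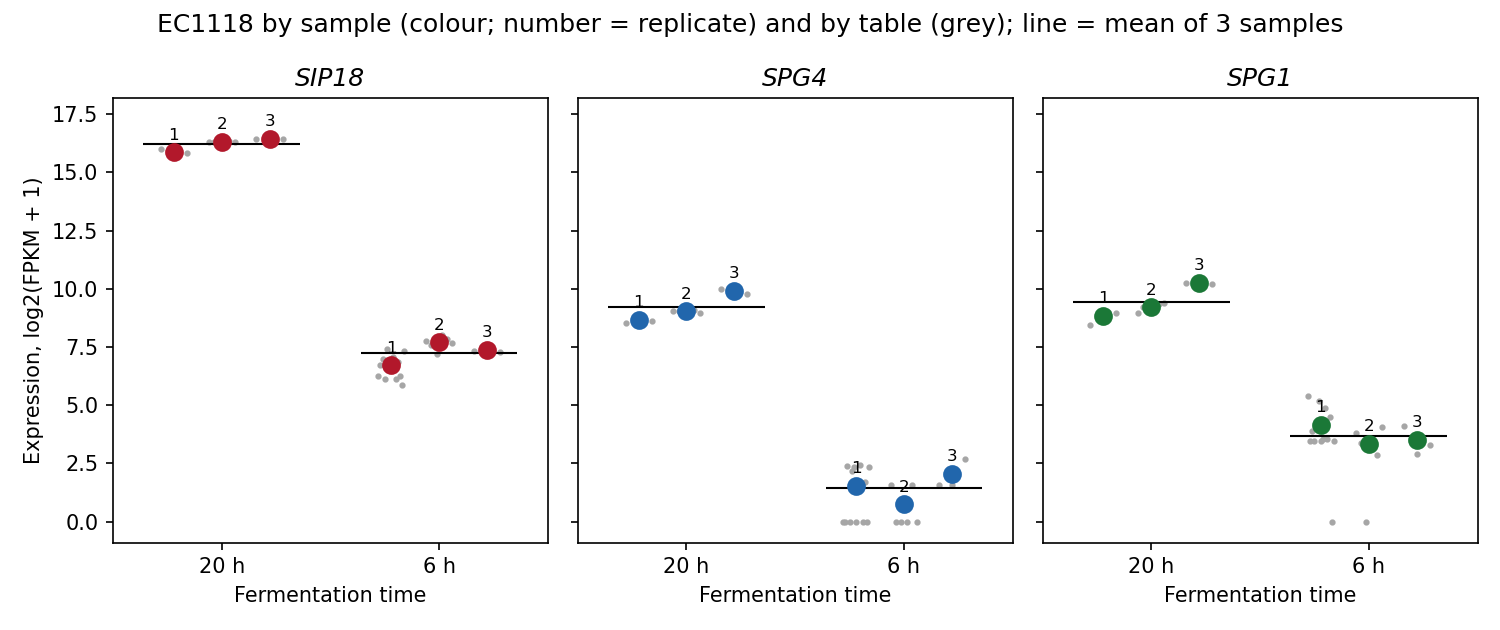
Expression of SIP18, SPG4 and SPG1 on the log2(FPKM + 1) scale in the samples at 20 h (left) and 6 h (right of each panel). Coloured points are samples with their replicate number, grey points the single tables behind them, and lines the mean of 3 samples. In each panel every 20 h sample lies above every 6 h sample, a contrast that chose the genes. Several 6 h tables of SPG4 are at 0.

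A large part of the loci differed between the times, and the 3 genes lay at the upper end of that distribution. Of 5712 loci tested with limma at a Benjamini-Hochberg adjusted p below 0.05, 2268 were higher at 20 h (39.7%) and 1176 lower (20.6%). The median of all tested loci was 0.30 on the log2 scale. With samples centred on their medians the split was 1860 higher and 1617 lower, and with quantile normalisation 1703 higher and 1571 lower. Only 6 loci were at least 64-fold higher on the log2(FPKM + 1) scale, SIP18 and SPG4 among them. All 3 genes had a mean of at least 1 FPKM over the samples and were in this fit, but their own p-values are not given. SPG4 passed that filter through its 20 h values, and nothing is read from its passing.

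**Figure D2:**
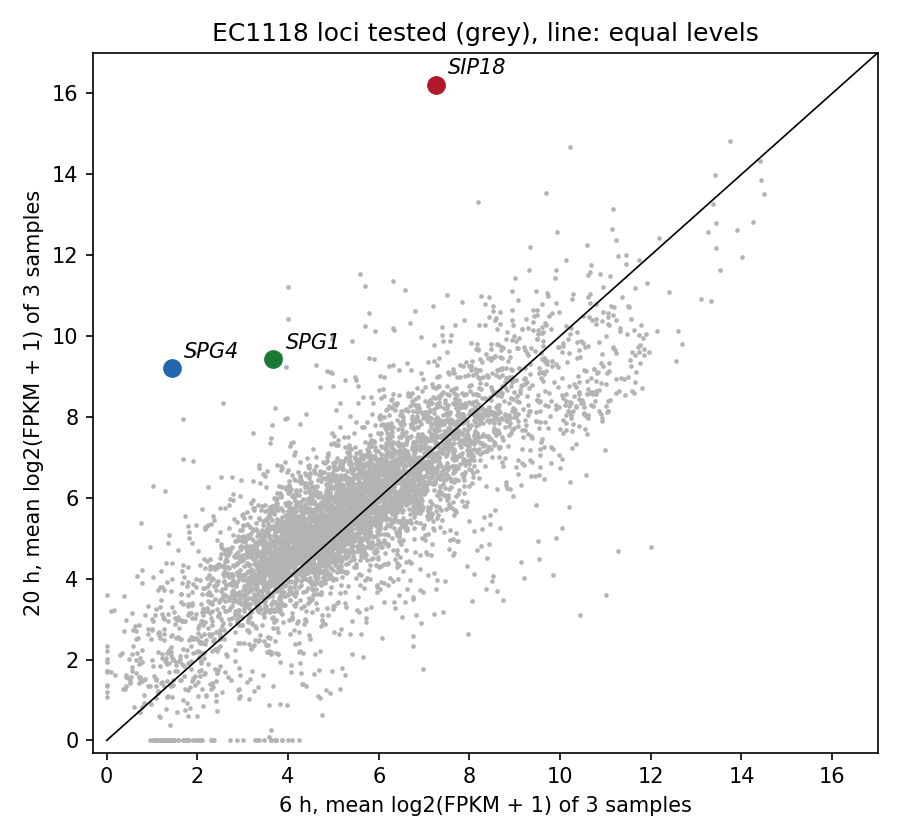
Mean log2(FPKM + 1) of 3 samples at 20 h (vertical axis) against 6 h (horizontal axis) for the 5712 loci tested (grey), with SIP18, SPG4 and SPG1 in colour and a line of equal levels. SIP18 lies above all other loci at 20 h, and SPG4 is the farthest above the line after it.

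How large these levels are depends on the length by which fragments are divided, and the 3 genes are among the shortest loci. Cufflinks divides by an effective length, which is shorter than the annotated length because a fragment cannot start near the end of a transcript. The length behind the deposited FPKM of SIP18 was 50.1, 48.4 and 31.8 nt at 20 h, against 57.4, 61.8 and 57.5 nt at 6 h. That is 20.9%, 20.2% and 13.3% of its 240 nt at 20 h, against 23.9%, 25.8% and 24.0% at 6 h. SPG1 stood at 35.0%, 33.6% and 22.1% of its length at 20 h, against 36.2%, 41.8% and 38.7% at 6 h. SPG4, the longest, stood at 47.9%, 46.8% and 34.9% at 20 h, against 48.1%, 55.4% and 52.8% at 6 h. The lowest share of each gene was in replicate 3 at 20 h. Over loci of 200 to 300 nt, the length class of SIP18 and SPG1, the median was 22.3%, 20.9% and 13.8% at 20 h, against 22.8%, 25.8% and 26.0% at 6 h. In replicate 3 at 20 h a fragment of SIP18 thus counted for more FPKM, at equal depth, than in any other sample. Ranks of all loci also set this sample apart, with Spearman correlations of 0.948 and 0.941 with replicates 1 and 2 at 20 h, which had 0.979 with each other. At 6 h replicate 1 had 0.953 and 0.948 with replicates 2 and 3, which had 0.980 with each other.

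**Figure D3:**
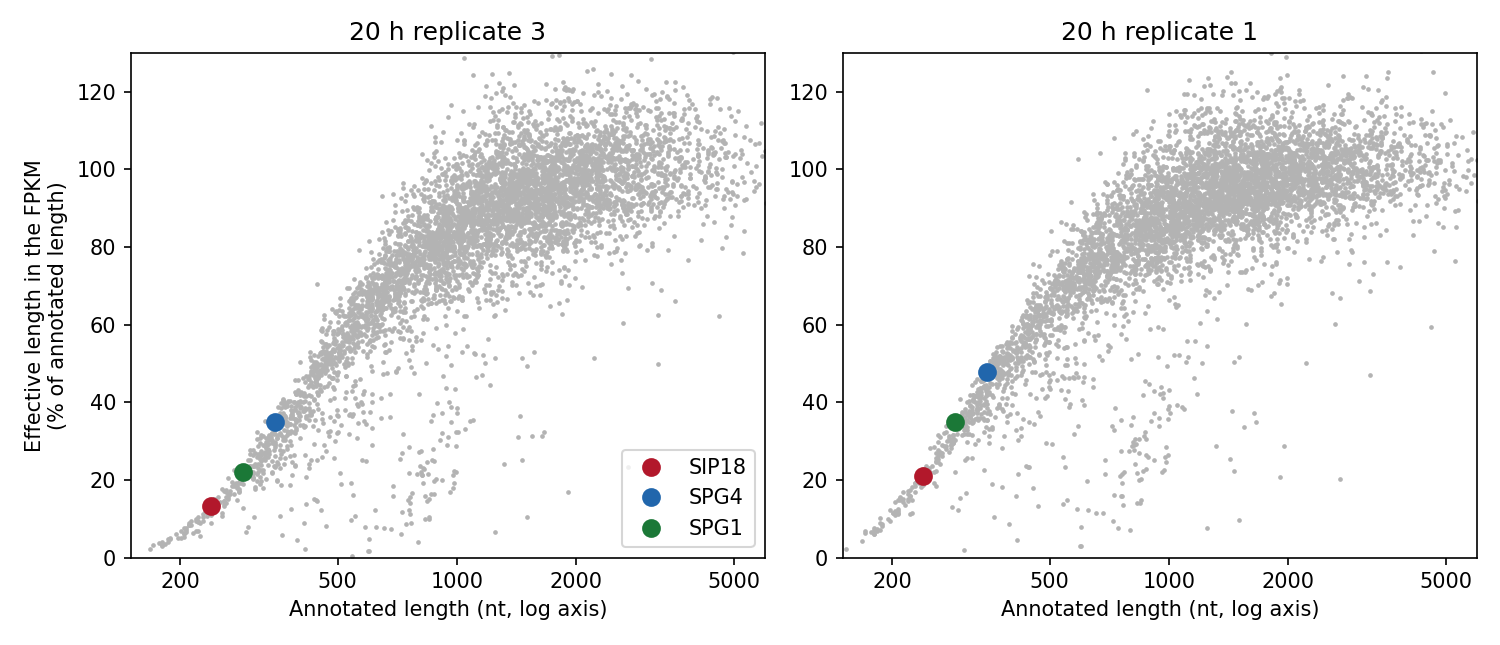
Effective length behind the FPKM, in percent of annotated length, against annotated length (log axis) for loci of replicate 3 (left) and replicate 1 (right) at 20 h. SIP18, SPG4 and SPG1 (coloured) lie on the steep lower part of the curve, at 13.3%, 34.9% and 22.1% in replicate 3 and at 20.9%, 47.9% and 35.0% in replicate 1.

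Dividing by the full coding length instead lowered all 3 genes and changed the order of samples for SIP18. This quantity, fragments scaled to the whole coding length and to the total of fragments, was chosen after the values had been seen and is called full-length FPKM below. SIP18 had 12489, 16460 and 11933 full-length FPKM at 20 h, against 25.0, 56.2 and 37.2 at 6 h. Replicate 3 at 20 h, the highest by FPKM, was the lowest of its group on this scale. The ratio of means was 345, and the log2 difference of 8.45 remained the largest, of 5569 loci. SIP18 then ranked 4, 3 and 4 of all loci at 20 h in place of 1, 1 and 1. A pair of unnamed loci of 999 and 1080 nt stood above it in each of the 3 samples.

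SPG4 had 197, 244 and 337 full-length FPKM at 20 h, against 0.966, 0.439 and 2.85 at 6 h. The ratio of its means was 183 on this scale, below the 332 by FPKM, and the log2 difference was 6.84. SPG1 had 159, 198 and 271 full-length FPKM at 20 h, against 6.58, 4.51 and 3.44 at 6 h. Its ratio was 43.2 and its log2 difference 5.17. Replicate 3 stayed the highest of the 20 h samples for both genes, unlike SIP18. On this scale the lowest 20 h sample was 212-, 69.3- and 24.2-fold above the highest 6 h sample for SIP18, SPG4 and SPG1. This contrast chose the genes, so these folds are a description.

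The order of levels at 20 h was clear for SIP18 and depended on the scale for SPG4 and SPG1. SIP18 exceeded SPG4 by 146-, 157- and 94.5-fold by FPKM in replicates 1, 2 and 3, and by 63.2-, 67.3- and 35.4-fold by full-length FPKM. SPG1 over SPG4 was 1.12, 1.13 and 1.28 by FPKM, but 0.806, 0.811 and 0.804 by full-length FPKM. The ratio of the 2 genes thus varied little between the samples, and which of them was higher turned with the length used. At 6 h the order was SIP18, SPG1, SPG4 in all 3 samples by FPKM, and in replicates 1 and 2 by full-length FPKM. SPG1 over SPG4 there was 8.83, 13.6 and 3.37 by FPKM and 6.81, 10.3 and 1.21 by full-length FPKM, with few fragments behind it. In replicate 3 at 6 h SPG1 and SPG4 had 2 fragments each in the 1 table counted. The 1.21 there thus reflects their lengths alone and gives no order, while SIP18 was above both.

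The share of the transcriptome taken by SIP18 at 20 h differed more than 10-fold between measures. It was 5.86%, 7.76% and 7.5% of summed FPKM at 20 h, against 0.00923%, 0.0185% and 0.0142% at 6 h. Of recovered fragments SIP18 took 0.398%, 0.548% and 0.371% at 20 h, against 0.000909%, 0.00189% and 0.00119% at 6 h. These were 30577, 35015 and 20402 fragments at 20 h, against 196, 176 and 18 at 6 h, the last from 1 of 3 tables. By fragments SIP18 ranked 16, 12 and 20 at 20 h. Per full length the share was 1.90%, 2.53% and 1.77% at 20 h. Means at 20 h were 7.04% of summed FPKM, 2.07% per full length and 0.439% of fragments.

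SPG4 took 0.0402%, 0.0495% and 0.0794% of summed FPKM at 20 h, and on average 0.0120% of fragments. SPG1 took 0.0453%, 0.0558% and 0.102% of summed FPKM at 20 h, and on average 0.00804% of fragments. By rank of FPKM, SPG4 was at 387, 308 and 188 at 20 h and SPG1 at 343, 275 and 135. At 6 h SPG4 ranked 5569, 5617 and 5361 and SPG1 ranked 4049, 4943 and 4809. Both were thus among the upper loci by FPKM at 20 h and well below the middle at 6 h, with SPG4 near the bottom of the list. By full-length FPKM SPG4 ranked 561, 436 and 304 at 20 h and SPG1 ranked 695, 554 and 407. By fragments, not divided by length, they stood lower, SPG4 at 2197, 1704 and 1366 and SPG1 at 3059, 2492 and 2077.

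**Figure D4:**
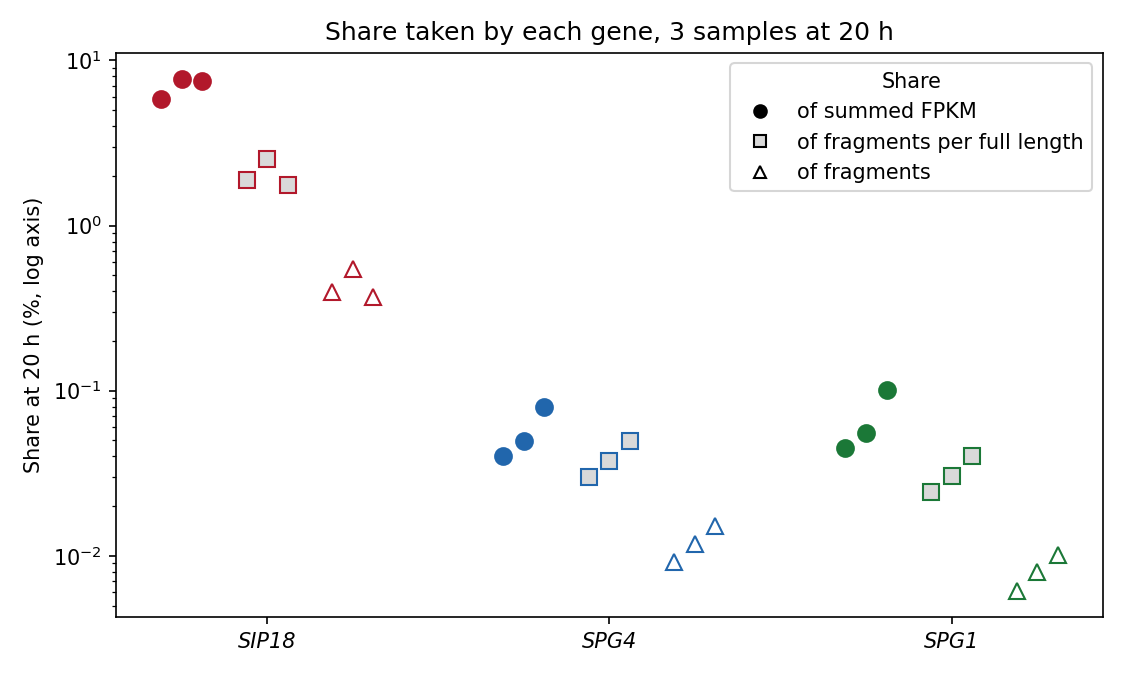
Share of each 20 h sample taken by SIP18, SPG4 and SPG1, on a log axis in percent, of summed FPKM (filled circles), of fragments per full length (squares) and of recovered fragments (triangles). For SIP18 the 3 measures run from 5.86% to 7.76%, from 1.77% to 2.53% and from 0.371% to 0.548%.

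The tables of 1 sample differed little from each other for the 3 genes at 20 h. The coefficient of variation between tables was 6.08%, 3.15% and 0.372% for SIP18 in replicates 1, 2 and 3 at 20 h, against 34.2%, 18.8% and 5.82% at 6 h. For SPG4 it was 8.01%, 3.12% and 7.33% at 20 h, and for SPG1 17%, 11.5% and 1.98%. At 6 h, with few fragments per table, it was 103%, 155% and 64.2% for SPG4 and 69.3%, 60.7% and 47.7% for SPG1.

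Among the neighbours of the 3 genes, 1 locus beside SIP18 both passed the test and differed by at least 4-fold on the log2(FPKM + 1) scale. The 5 loci on each side of each gene make 30, of which 29 were tested, with 14 higher and 5 lower at 20 h and a median log2 difference of 0.53. These shares stand beside 39.7% higher, 20.6% lower and a median of 0.30 over all loci. Beside SIP18 6 of 10 were higher and 1 lower, beside SPG4 4 of 9 were higher and 1 lower, and beside SPG1 4 of 10 were higher and 3 lower. On the side of SIP18 with EC1118_1M3_3631g the other 4 loci form 2 overlapping pairs, whose reads cannot be assigned with certainty in libraries that do not mark strand.

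This neighbour was EC1118_1M3_3631g, an unnamed locus of 207 nt at 580238 to 580444, 650 nt from SIP18. By length and position it matches PAI3, the S288C gene directly before SIP18, also of 207 nt. It had 8877, 8745 and 13831 FPKM at 20 h, against 185, 391 and 344 FPKM at 6 h. The means were 10484 ± 2899 FPKM at 20 h and 307 ± 108 FPKM at 6 h (SD, n = 3 each). Its log2 difference was 5.13 ± 0.33 (SE, limma adjusted p = 4.65e-05), and it ranked 11, 11 and 7 of all loci at 20 h. By full-length FPKM it had 1308, 1200 and 1052 at 20 h, against 28.6, 81.2 and 74.4 at 6 h. The locus on the other side of SIP18, EC1118_1M3_3653g of 195 nt, lies only 58 nt away and averaged 9.25 ± 12.4 FPKM at 20 h and 0.798 ± 1.38 FPKM at 6 h (limma adjusted p = 0.228).

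**Figure D5:**
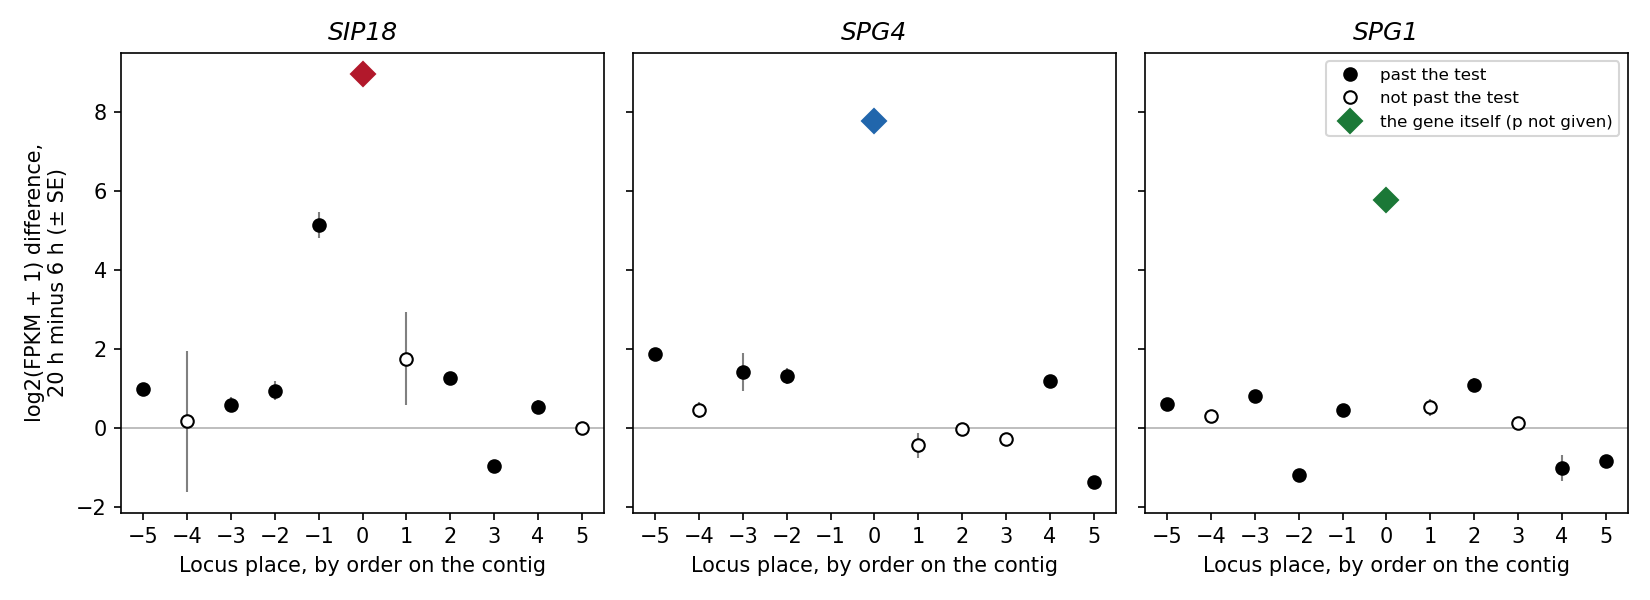
Log2(FPKM + 1) difference, 20 h minus 6 h, with its SE, for the 5 loci on each side of SIP18, SPG4 and SPG1 by their order on the contig. Filled points passed the test, open points did not, and diamonds are the 3 genes, whose p-values are not given because this contrast chose them. Apart from the 3 genes, the only value above 4 is that of EC1118_1M3_3631g at 5.13, directly before SIP18.

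The patterns of the 3 genes over the 6 samples were compared with those of 5152 loci with a mean of at least 10 FPKM. Likeness was the root mean square difference of log2(FPKM + 1) values centred on their mean, where smaller means more alike, and it is a description over samples that chose the genes. SIP18 and SPG4 were 0.86 apart, SPG1 and SPG4 1.07, and SIP18 and SPG1 1.71. The locus nearest to both SPG4 (0.38) and SIP18 (0.82) was EC1118_1C17_0199g, unnamed, of 240 nt at 29259 to 29498 on chromosome III. It had 601, 750 and 978 FPKM at 20 h, against 1.59, 1.92 and 6.44 FPKM at 6 h. Like SPG4 it was below 10 FPKM at 6 h and highest at 20 h in replicate 3, though likeness over these samples is what chose it. Nearest to SPG1 (0.43) was the unnamed EC1118_1B15_0375g, with 523, 475 and 1636 FPKM at 20 h, against 11, 14.5 and 14.4 FPKM at 6 h. At 1950 nt it lies outside the short length class. Since likeness to SPG1 over these samples chose it, its high value in replicate 3 at 20 h is part of that choice.

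*K. marxianus* has 1 locus with the symbol of one of the 3 genes, SPG4 (KLMA_30101, 306 nt, chromosome 3 from 240279 to 240584), in samples that took no part in the choice. SIP18 and SPG1 matched 0 symbols. SPG4 had 834, 1052 and 600 FPKM at 36 h, against 3.60, 60.2 and 31.8 FPKM at 6 h. Replicate 1 at 6 h is far below the other two. Behind these values lay 317, 2337 and 885 fragments at 36 h, against 5, 46 and 48 at 6 h. Replicate 2 at 6 h was counted in 3 of its 7 tables, and the 5 fragments of replicate 1 are few. The means were 828 ± 226 FPKM at 36 h and 31.9 ± 28.3 FPKM at 6 h (SD, n = 3 each). SPG4 rose in *K. marxianus*, with a log2 difference of 5.27 ± 0.75 (SE, limma adjusted p = 0.000548). Without replicate 1 at 6 h the log2 difference was 4.17, and without replicate 2 at 6 h it was 6.04, both past the test. By full-length FPKM the values were 180, 440 and 279 at 36 h, against 1.67, 19.5 and 15.8 at 6 h. The later times of the yeasts differ, so their differences were not compared.

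Other genes known from stationary phase and stress could be followed by symbol only in *K. marxianus*, since none of the 37 symbols in either of 2 lists occurs in the EC1118 tables. Over all 4929 *K. marxianus* loci tested, 21.3% were higher and 19.5% lower at 36 h. Of 16 stationary phase, desiccation and heat shock genes tested there, SPG4 included, 6 were higher and 4 lower, with a median log2 difference of 0.47 beside -0.0011 over all loci. HSP26, a small heat shock chaperone, averaged 4614 ± 968 FPKM at 36 h and 45.5 ± 38.6 FPKM at 6 h (SD, n = 3 each, limma adjusted p = 0.000164). Its log2 difference was 7.38, and 6.11 without replicate 1 and 8.17 without replicate 2 at 6 h, both past the test. STF2 averaged 29393 ± 10508 FPKM at 36 h and 9010 ± 6263 FPKM at 6 h (limma adjusted p = 0.0285). At 6 h STF2 had 1784 FPKM in replicate 1, against 12849 and 12399 FPKM in replicates 2 and 3, and its log2 difference was 2.10 with replicate 1 and 1.16 without it. It missed the threshold without replicate 1 at 36 h (limma adjusted p = 0.112) or replicate 2 at 36 h (limma adjusted p = 0.0565). HSP12, a membrane-protecting heat shock protein, was lower, with 2109 ± 1089 FPKM at 36 h and 4668 ± 1643 FPKM at 6 h (limma adjusted p = 0.0412). HSP12 missed the threshold without replicate 2 or 3 of either time, with limma adjusted p from 0.0978 to 0.155. The count of lower genes changed with the samples used. It was 0 without replicate 2 at 36 h or without replicate 2 at 6 h, where limma gave 2 and 3 at an unadjusted p below 0.05. The count was 2 without replicate 3 of either time. The share of all loci lower in those smaller fits is not given, so a loss of calls over all loci cannot be told apart. The count of higher genes moved less, with 4 without replicate 2 at 36 h and 7 without replicate 3 at 36 h as its extremes.

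Of 23 general stress response and reserve carbohydrate genes tested in *K. marxianus*, 6 were higher and 2 lower at 36 h, with a median of 0.0038. These stand beside 21.3% higher, 19.5% lower and a median of -0.0011 over all loci. GLK1, a glucokinase, averaged 435 ± 68.9 FPKM at 36 h and 22.8 ± 6.06 FPKM at 6 h (SD, n = 3 each, limma adjusted p = 1.03e-05). CTT1, the cytosolic catalase, was lower, with 316 ± 59.1 FPKM at 36 h and 1183 ± 534 FPKM at 6 h (limma adjusted p = 0.00493). Lower genes numbered 1 without replicate 2 or 3 at 36 h or without replicate 2 at 6 h. Higher genes numbered 4 without replicate 2 at 6 h, and 5 or 6 without any other single sample.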

How the data were processed

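Total RNA was made into TruSeq V2 libraries, per the labels' protocols. Per the submitters' processing notes the tools were Cufflinks 2.2.1.2, Cuffdiff 2.2.1.5, TopHat2 2.0.8, Trim Galore 0.4.3.1 and FastQC 0.10.1, whose roles are not given. No genome build is given in the sources used here. As their values, the authors deposited FPKM with its interval, per the file headers, in 67 tables of Cufflinks layout, 35 of them for EC1118. The labels do not say how the 3 to 13 tables of a sample differ, so they were averaged to 1 value per sample. Values marked LOWDATA or FAIL, 126 in EC1118, were treated as missing. Coordinates were turned to a count from 1.

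Fragments were recovered as the square of 2 times the FPKM over the distance between FPKM and upper bound. Below 5.5 fragments this gave whole numbers, with a tolerance of 0.02, in 33 of 35 EC1118 tables (median share 79.7%). In 2 tables of replicate 3 at 6 h it did not, and their depth is unknown. Summed fragments were 7.67, 6.39 and 5.50 M (1000000 fragments) at 20 h, against 21.6, 9.34 and 1.51 M at 6 h, the last from 1 table. Table totals came from loci of at least 2000 nt, and the effective length from fragments, FPKM and that total. Fragments are not independent molecules.

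Loci with a mean of at least 1 FPKM were tested on log2(FPKM + 1) by limma 3.58.1 (R 4.3.3, trend on intensity), with p-values adjusted over all loci. Such a fold understates the change of low genes. The fit was tested on simulated data. The genes and lists were chosen with earlier results of these data known. Named were the 3 genes, neighbours past the test and 4-fold, the loci most alike in pattern (the nearest 1 of 5 per gene is given) and *K. marxianus* loci with a gene's symbol. EC1118_1M3_3653g and the other *K. marxianus* genes were named after their values were seen. Symbols of *K. marxianus* came from RefSeq assembly Kmar_1.0. The planned list count in EC1118 was not possible without symbols and was made in *K. marxianus* instead.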

Additional observations from a re-analysis of the deposited data

How the results depend on the processing

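The log2 difference of SIP18 was 8.45 with fragments over the full length and 8.08 with quantile normalisation, and 8.68 to 9.17 leaving out 1 sample. That of SPG4 was 6.84 over the full length, 8.43 with a pseudocount of 0.1 and 5.66 with one of 10, and 7.41 to 8.06 leaving out 1 sample. That of SPG1 was 5.00 with a pseudocount of 10, and 5.36 to 6.06 leaving out 1 sample. The 20 h share of SIP18 was 8.75% when loci of 400 nt or less other than the 3 genes were left out of the total, 0.439% of fragments and 2.07% per full length. The share of SPG4 was 0.0120% of fragments, and that of SPG1 0.00804% of fragments and 0.0316% per full length. EC1118_1M3_3631g passed under all 18 alternatives. SPG4 of *K. marxianus* passed under all of its alternatives. Its limma adjusted p ran from 1.08e-08 with the replicate number as a block to 0.0148 without a filter, beside 0.000548 in the main fit. In *K. marxianus* the lower stationary phase genes numbered 2 without a filter and 0 to 6 leaving out 1 sample, and the lower general stress genes 1 to 3. Same-numbered EC1118 samples had correlations of -0.124, 0.166 and 0.0318 between their deviations, and not every sample correlated best with its own number. Same-numbered *K. marxianus* samples had correlations of 0.0429, -0.0742 and -0.230. No pairing by number was seen in either yeast, though 3 samples per group cannot exclude it. With the replicate number as a block, 2138 loci were higher and 1101 lower at 20 h, 10 and 4 of them beside the 3 genes. The replicate block left SIP18, SPG4 and SPG1 at 8.96, 7.76 and 5.77. In *K. marxianus* with the block SPG4 stayed at 5.27, 6 and 3 stationary phase genes were higher and lower, and 5 and 2 general stress genes. Weighting tables by depth, full-length values, the *K. marxianus* lists and the single genes of those lists without 1 sample were added after seeing the data. SPG4 had few fragments at 6 h, as had SPG1 in replicate 3 at 6 h, which limits the precision of their ratios.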
